A study of Homo sapiens with 9 samples.

Results

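The respiratory chain of the inner mitochondrial membrane is built from subunits of mixed origin, and the genes described here are those carried in the nucleus. They were taken by symbol from the gene rows of 9 RNA sequencing libraries of LAPC4 cells, a human prostate cancer line: NDUFA, NDUFB, NDUFC, NDUFS or NDUFV followed by digits, SDHA to SDHD, symbols that start with UQCR, ATP5F1, ATP5M or ATP5P, and 11 named COX genes, without symbols of pseudogenes. Of 60325 gene rows, 82 matched and 80 had at least 10 counts in 3 libraries: 36 of complex I, 4 of complex II, 10 of complex III, 12 of complex IV and 18 of complex V. NDUFA4, whose name places it in complex I, was put with complex IV, where its protein is found. The 2 genes left out, ATP5MGL and UQCRFS1-DT, had 0 to 3 counts in every library, while NDUFA7, the weakest of the 80, had 81 counts in all. Of the 80, 3 are not subunit genes in the plain sense: UQCRB-AS1 is a noncoding antisense RNA, UQCRHL an intronless copy of UQCRH and ATP5MF-PTCD1 a readthrough of neighbouring genes.

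The libraries came from 3 groups of 3 at day 30. Rescue cells (titled KD4OE) carry overexpressed UGT2B28 on the knockdown background, with 1 mg/mL G418 given as their selection. Knockdown-labelled cells (KD4) were aimed at UGT2B28, a steroid-conjugating UDP-glucuronosyltransferase, with 3 ug/mL puromycin as their selection. Control cells are titled NT, with no selection drug in the labels. Drug and genotype therefore cannot be told apart, the labels do not say whether a group is 1 clone, and separate cultures are not stated, so a p-value here weighs differences against a library-to-library spread that may be purely technical.

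Electrons from NADH enter at complex I and those from succinate at complex II. They pass through ubiquinone to complex III, through cytochrome c to complex IV and on to oxygen. Complexes I, III and IV pump protons, and complex V, the ATP synthase, lets them back to make ATP. Mitochondrial DNA encodes some subunits of complexes I, III, IV and V, among them the catalytic core of complex IV. The catalytic head of complex V, the small accessory subunits and all of complex II are nuclear.

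Libraries held 8132206 to 14185252 counts on genes. UGT2B28 had 1139, 1062 and 539 counts in rescue libraries, 63, 70 and 28 in knockdown-labelled libraries and 44, 50 and 76 in control libraries. Knockdown-labelled libraries were thus not shown to have less of its mRNA than controls (log2 fold change -0.04, edgeR adjusted p = 0.957), and their name here is that of the label. The 8 luminal prostate markers summed to 4620 to 5670 TMM-scaled counts per 1000000 (CPM) in rescue, 3115 to 5948 in knockdown-labelled and 3909 to 4879 in control libraries. Of other cell types, the 3 basal markers summed to at most 3.71 CPM, the 3 endothelial markers to at most 5.03 and the 3 leukocyte markers to at most 10.4, with PTPRC at 0 throughout. The 5 fibroblast markers summed to 47.7 to 109.8 CPM in rescue, 40.6 to 45.6 in knockdown-labelled and 19.7 to 62.0 in control libraries, and their part in the results was not tested.

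Knockdown-labelled library 3 stood apart from libraries 1 and 2 of its group, and this bears on every result below. Per degree of freedom, the chi-square between counts was 3.46 between libraries 1 and 2, against 62.0 for library 1 with 3 and 66.4 for library 2 with 3. Such values ran at 7.70 to 9.47 within rescue and 2.13 to 6.12 within control, so no 2 libraries matched within sampling noise. The 80 genes together took 0.794%, 0.802% and 0.845% of counts in rescue libraries. They took 1.20%, 1.14% and 0.751% in knockdown-labelled libraries 1, 2 and 3, against 0.921%, 0.915% and 0.856% in control libraries. The first 2 knockdown-labelled libraries were thus the highest of the 9 and the third the lowest. In bulk RNA, fewer cells and less RNA per cell cannot be told apart.

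**Figure D1:**
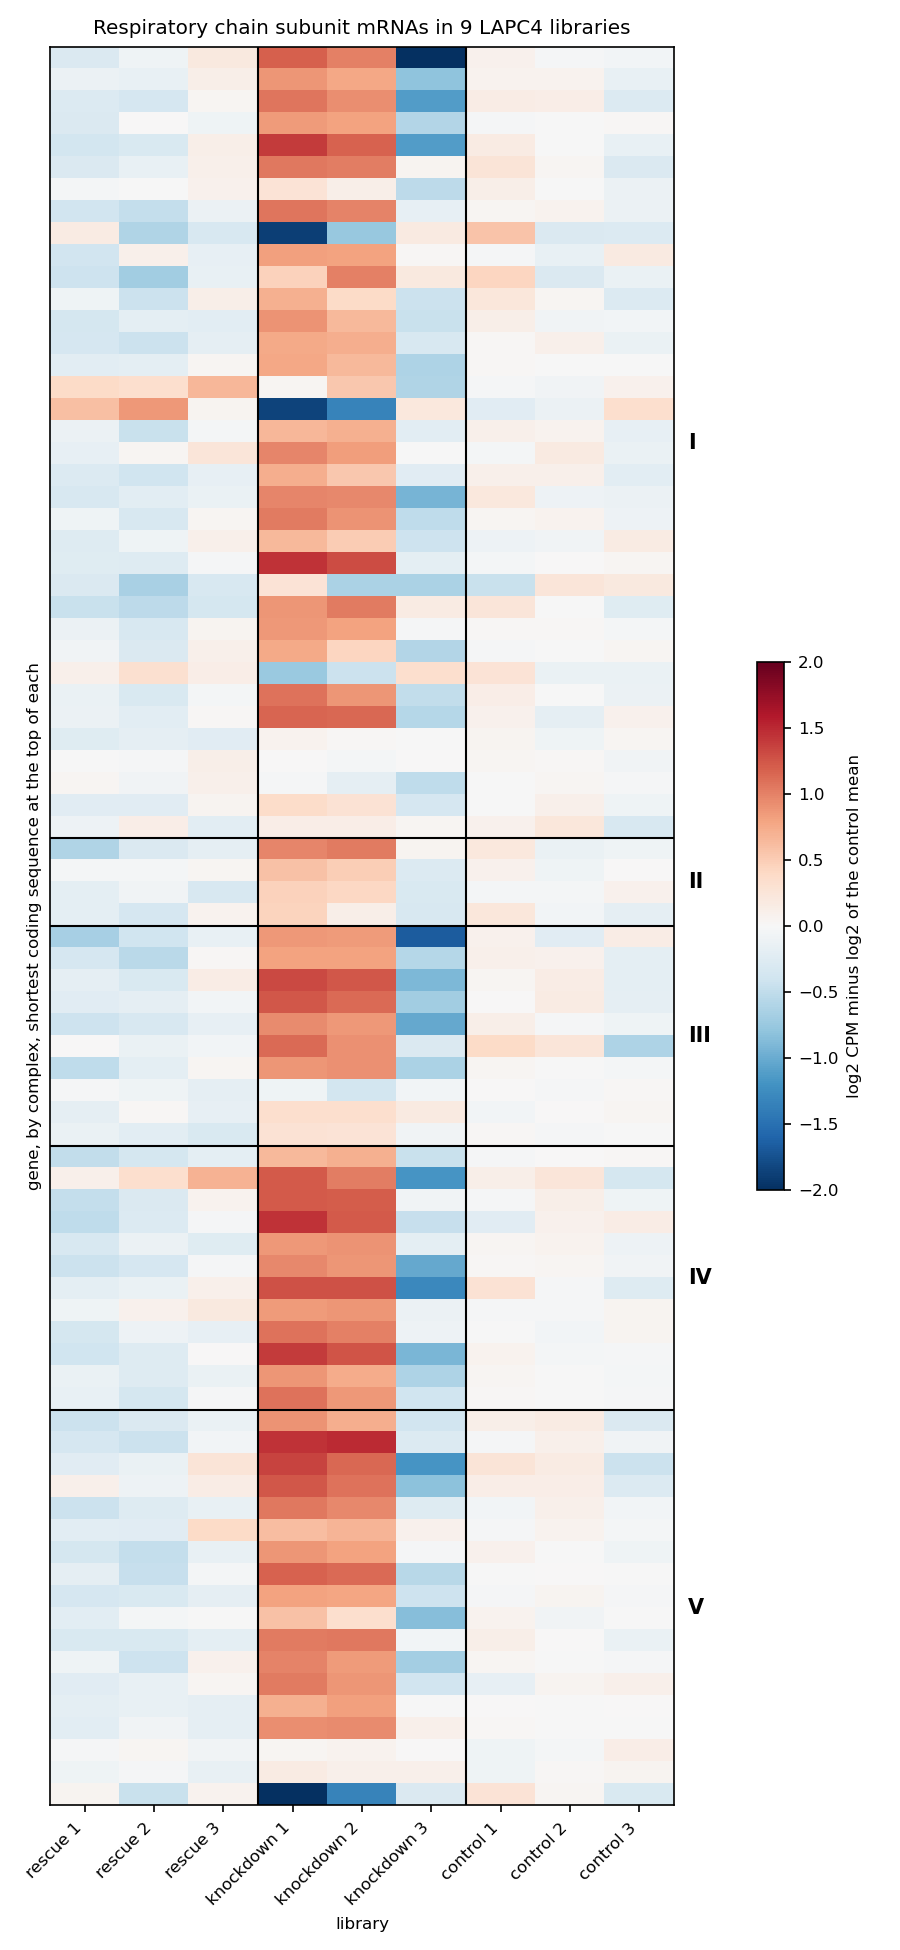
Heat map of the 80 genes (rows, not labelled, by complex, shortest coding sequence first) in 9 libraries (columns), coloured by log2 CPM minus log2 of the control mean; shifts beyond 2 in size are drawn as 2. Knockdown-labelled libraries 1 and 2 are raised in nearly all rows (medians 0.87 and 0.81) and library 3 is lowered (median -0.36).

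In rescue against knockdown-labelled libraries, which asks what differs once UGT2B28 is overexpressed on the knockdown background, each complex held a gene that fell. With knockdown-labelled library 3 alone, all complex medians were positive instead, from 0.08 for complex V to 0.38 for complex III. Of the 80 genes, 15 fell and 0 rose at an edgeR adjusted p under 0.05 over all genes tested. The background was 5.39% of 16796 genes lower and 4.44% higher. The log2 fold change (rescue minus knockdown-labelled) was negative in 71 of 80, with a median of -0.73 beside -0.0023 over all genes. Complex medians were -0.63 for I, -0.37 for II, -0.77 for III, -0.82 for IV and -0.77 for V, and the genes that fell numbered 5 of 36, 1 of 4, 1 of 10, 2 of 12 and 6 of 18. Differences between complexes were not tested. The groups did not overlap in 12 of the 80 genes, all 12 lower in rescue, and of all genes 14.0% did so.

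Few of these calls held when 1 library was left out. None of the 15 passed without rescue library 1, 2 or 3 (0.249%, 0.753% and 0.649% of all genes lower). Without the controls in the fit none passed (0.0183%), and with the replicate number as a block 1 did (1.3%). Without control library 1, 4 of the 15 passed, without control library 2, 4, and without control library 3, 5 (2.6%, 2.44% and 3.24%). Without knockdown-labelled library 1, 1 passed, without library 2, 0, and without library 3, all 15 (1.35%, 0.558% and 20.4%). Calls over all genes thus became fewer too, except without knockdown-labelled library 3. All 15 stayed negative in each of these fits.

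**Figure D2:**
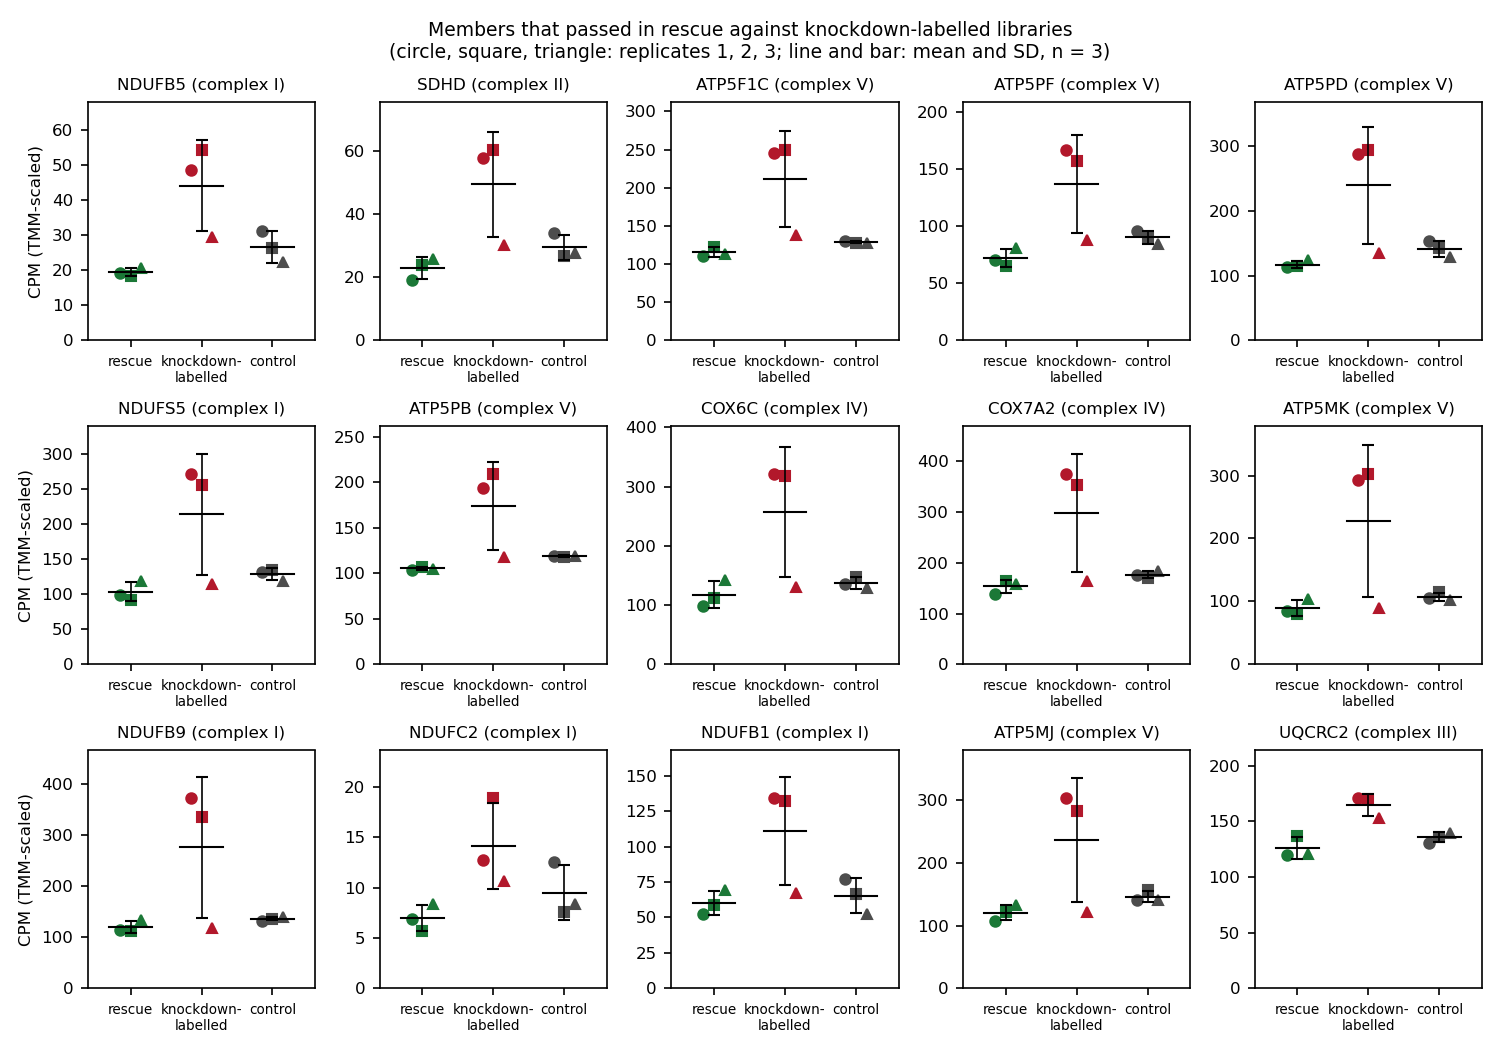
CPM of the 15 genes that fell in rescue against knockdown-labelled libraries, in each library (symbols), with group mean and SD (n = 3). Knockdown-labelled libraries 1 and 2 (circle, square) lie above the 3 rescue libraries in all 15, while library 3 (triangle) lies within or above the rescue range.

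Complex I oxidises NADH in its N module, passes electrons to ubiquinone in its Q module and pumps protons in its membrane arm, the P module. All 5 of its genes that fell, NDUFB5, NDUFS5, NDUFB9, NDUFC2 and NDUFB1, encode accessory subunits of the membrane arm, where 5 of 20 genes passed, against 0 of 10 in the N module and 0 of 6 in the Q module. Module medians were -0.70 for P, -0.33 for N and -0.72 for Q. Without knockdown-labelled library 3, 16 of 20 genes were lower in the P module, 6 of 10 in the N module and 5 of 6 in the Q module (background 20.4% lower), and differences between modules were not tested. NDUFB5 (chromosome 3, 179604690 to 179627647, plus strand, GRCh38) stood at 19.2, 18.3 and 20.6 CPM in rescue, 48.6, 54.2 and 29.5 CPM in knockdown-labelled and 31.2, 26.2 and 22.4 CPM in control libraries. Every rescue library was below every library of the other groups. Its log2 fold change was -1.19 (SE 0.215, adjusted p = 0.0125), the lowest p of the 80.

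NDUFB9 had 115, 113 and 134 CPM in rescue and 373, 336 and 119 CPM in knockdown-labelled libraries, a log2 fold change of -1.19 (adjusted p = 0.0420), and library 3 fell among the rescue values. NDUFS5 showed the same form, with 98.8, 92.01 and 118 CPM in rescue and 271, 255 and 115 CPM in knockdown-labelled libraries (-1.05, adjusted p = 0.0336). NDUFC2, a weakly counted gene, had 6.92, 5.68 and 8.35 CPM in rescue and 12.8, 18.9 and 10.7 CPM in knockdown-labelled libraries. The groups did not overlap (-1.02, adjusted p = 0.0428). NDUFC2 shares 431 exon bases with the same-strand NDUFC2-KCTD14, which had 0 counts, so its counts may be incomplete. NDUFB1 stood at -0.89 (adjusted p = 0.0457).

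Of the 7 nuclear genes of the catalytic core of complex I, 0 passed, and their median was -0.15. NDUFV1, which binds NADH and flavin, had 227, 211 and 238 CPM in rescue and 218, 196 and 155 CPM in knockdown-labelled libraries (0.25, adjusted p = 0.261). NDUFS1, which carries iron-sulfur clusters on the way to ubiquinone, had -0.15 (adjusted p = 0.547). The membrane arm genes NDUFA10 and NDUFB2 had -0.24 and 0.03. Among other core genes, NDUFS3 had -0.79 and NDUFV2 0.41. NDUFA13 (1.33), NDUFA7 (0.46) and NDUFV2 were the largest positive values in the complex, and none passed. They averaged 5.13, 0.864 and 3.51 CPM in rescue libraries, and share 44.1%, 75.9% and 82.9% of their transcripts with other genes on their strand, so their counts are uncertain.

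Complex II, succinate dehydrogenase, also belongs to the citric acid cycle. SDHD (chromosome 11, 112086773 to 112120013, plus strand, GRCh38), a membrane anchor subunit, had 19.2, 24.1 and 25.9 CPM in rescue, 58.01, 60.4 and 30.4 CPM in knockdown-labelled and 34.1, 26.7 and 27.6 CPM in control libraries. Rescue lay below both other groups without overlap, and against knockdown-labelled libraries the log2 fold change was -1.11 (SE 0.240, adjusted p = 0.0212). TIMM8B, on the other strand, shares 26 bases with SDHD, 0.9% of the exon length of SDHD, and strandedness of the counts is not stated. AP002884.3, on the same strand and with 0 counts, shares 319 bases, 11.2% of that exon length. Of the SDHD transcript, 22.2% is shared on its strand, so its counts may be incomplete. The other anchor, SDHC, and the iron-sulfur subunit, SDHB, stood at -0.33 (adjusted p = 0.282) and -0.42 (adjusted p = 0.160). SDHA, the flavoprotein that oxidises succinate, had 7.18, 6.47 and 8.64 CPM in rescue and 11.3, 8.92 and 6.53 CPM in knockdown-labelled libraries (-0.26, adjusted p = 0.523), with overlap.

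In complex III, UQCRC2, a core protein of the cytochrome bc1 complex, fell at the edge of the threshold. It had 119.7, 137 and 120.4 CPM in rescue and 171, 170.3 and 153 CPM in knockdown-labelled libraries, with no overlap and a small difference (-0.39, SE 0.111, adjusted p = 0.04998). The other core protein, UQCRC1, had -0.39 (adjusted p = 0.0845), also without overlap. UQCRFS1, the Rieske iron-sulfur protein, had 59.9, 57.1 and 53.4 CPM in rescue and 57.3, 46.9 and 58.1 CPM in knockdown-labelled libraries (0.07, 95% confidence interval -0.19 to 0.33). The small subunits had larger differences and a wider spread. UQCRQ had 168, 175 and 190.5 CPM in rescue and 466, 431 and 122 CPM in knockdown-labelled libraries (-0.93, adjusted p = 0.130). The hinge protein gene UQCRH had 200.3, 212 and 239 CPM in rescue and 513, 486 and 131 CPM in knockdown-labelled libraries (-0.80, adjusted p = 0.192). For both genes, knockdown-labelled library 3 lay below all rescue libraries and libraries 1 and 2 far above them.

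All 12 genes of complex IV, cytochrome c oxidase, had a negative log2 fold change, and 2 small accessory subunits passed. COX6C (chromosome 8, 99873200 to 99894062, minus strand, GRCh38) had 97.8, 112 and 143 CPM in rescue, 321, 319 and 131 CPM in knockdown-labelled and 135, 148 and 128 CPM in control libraries. Its log2 fold change was -1.13 (SE 0.288, adjusted p = 0.0361), although library 3 lay within the rescue range. COX7A2 had 138.6, 163.7 and 158.1 CPM in rescue and 374.7, 353.5 and 164.5 CPM in knockdown-labelled libraries, with library 3 only slightly above the highest rescue library (-0.96, adjusted p = 0.0384). COX7B had the lowest log2 fold change of the complex, -1.20, and did not pass (adjusted p = 0.0633). COX4I1, a regulatory subunit, had -0.82, COX7C -0.73 and NDUFA4 -0.83 (adjusted p = 0.0508). COX8A, with 29.1, 34.5 and 44.1 CPM in rescue and 64.1, 55.5 and 11.9 CPM in knockdown-labelled libraries, was nearest 0 at -0.29.

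Complex V held 6 of the 15 genes that fell. ATP5F1C (chromosome 10, 7788129 to 7807815, plus strand, GRCh38), the gamma subunit that turns inside the catalytic head, had 111, 123 and 114 CPM in rescue, 245, 249 and 139 CPM in knockdown-labelled and 130.5, 128 and 128 CPM in control libraries. No rescue library reached the lowest of either other group, and its log2 fold change against knockdown-labelled libraries was -0.87 (SE 0.193, adjusted p = 0.0234). The head's own alpha and beta subunits did not pass. ATP5F1A had -0.21 (adjusted p = 0.247), without overlap, and ATP5F1B had 541, 566 and 522 CPM in rescue and 564, 574 and 554 CPM in knockdown-labelled libraries (-0.05, interval -0.32 to 0.21).

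Of the 4 genes of the peripheral stalk, which holds the head still, 3 fell without overlap. ATP5PF had 70.5, 64.8 and 80.6 CPM in rescue and 166, 157 and 87.9 CPM in knockdown-labelled libraries (-0.93, adjusted p = 0.0235). Its exons share 413 bases, 20.2% of their length, with GABPA on the other strand, and without a stated strand, reads on those bases cannot be told apart. ATP5PD had 114, 114 and 123 CPM in rescue and 288, 294 and 136 CPM in knockdown-labelled libraries (-1.03, adjusted p = 0.0270). ATP5PB had -0.72 (adjusted p = 0.0337), and the last, ATP5PO, -0.76 (adjusted p = 0.124). The small membrane subunit genes ATP5MK and ATP5MJ fell too. ATP5MK had 85.1, 79.5 and 104 CPM in rescue and 293, 302 and 88.9 CPM in knockdown-labelled libraries, and -1.35 was the lowest log2 fold change of the 80 (adjusted p = 0.0384). For ATP5MJ it was -0.97 (adjusted p = 0.0466). For both, library 3 lay inside the rescue range. The proton-carrying c ring is made of 1 protein encoded by 3 genes, and none of the 3 passed. Their log2 fold changes were -0.99 for ATP5MC1, -0.77 for ATP5MC2 and -0.23 for ATP5MC3.

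**Figure D3:**
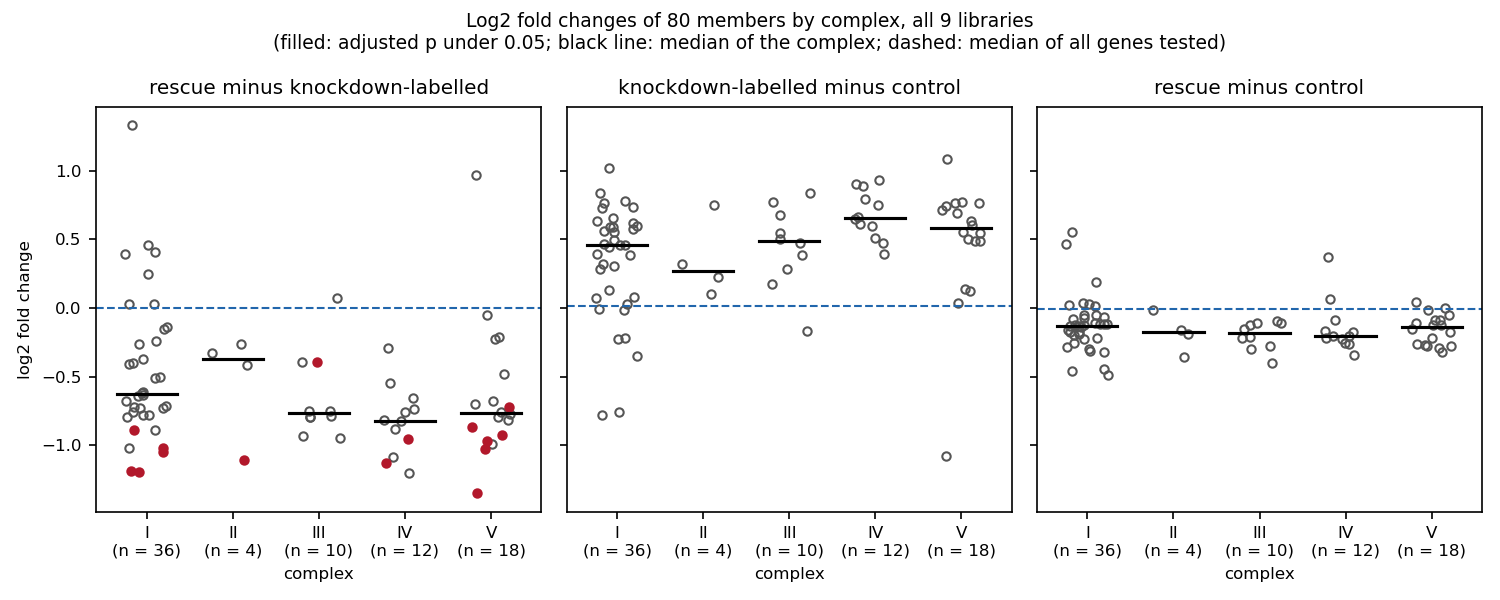
Log2 fold changes of the 80 genes (points) by complex in 3 comparisons, with the median of each complex (black line) and of all genes tested (dashed line). Filled points passed: 15 in rescue minus knockdown-labelled, none in the other panels; each group serves in 2 panels.

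Respiratory chain promoters are known for sites of NRF1, of the ETS factor GABP, of YY1 and of SP1. RefSeq (GRCh38.p14) gave 77 promoter windows for 64 of the 80 genes, each from 250 bases before to 50 after a start site. Letters were searched on both strands, and a match is a description of the window, not a bound site. CGCNTGCGC (NRF1) was in 22 of the 77 windows, 28.6%, beside 7.52% of all 35116 windows. The stricter form with a G before these letters, searched first, was in 16, 20.8%, beside 5.78% of all. CCGGAAG (GABP) was in 22, 28.6%, beside 10.3% of all. AAGATGGCG (YY1) was in 10, 13%, beside 1.75% of all. GGGCGGGG (SP1) was in 20, 26.0%, beside 22.8% of all. These motifs were searched independently and windows can hold several. Among genes that fell, ATP5PB, COX7A2, NDUFB1 and UQCRC2 had none of these letters in their windows. NDUFB5, COX6C, NDUFS5, NDUFB9 and NDUFC2 had no window. Whether these letters go with the fall was not tested. Below are stretches from genes that fell, shown because they hold such letters (capitals). The longer stretches leave out bases in annotated exons of either strand, and the SDHD and ATP5F1C lines are 30 bases around the NRF1 match. SDHD lies at chr11:112086753-112086782 (plus strand), ATP5F1C at chr10:7788145-7788174 (plus), ATP5PD at chr17:75046986-75047183 (minus) and ATP5MJ at chr14:103921567-103921779 (minus). Capitals mark the NRF1 letters, matched on both strands with overlap, in the first pair, the GABP letters in ATP5PD and the SP1 letters in ATP5MJ.
SDHD: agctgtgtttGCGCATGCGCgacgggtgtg
ATP5F1C: gggagcttcgGCGCATGCGCgctgaggcct
ATP5PD: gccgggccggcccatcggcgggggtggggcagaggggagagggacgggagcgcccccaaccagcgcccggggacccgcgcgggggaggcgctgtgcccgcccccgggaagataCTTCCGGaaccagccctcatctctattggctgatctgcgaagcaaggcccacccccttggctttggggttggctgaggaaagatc
ATP5MJ: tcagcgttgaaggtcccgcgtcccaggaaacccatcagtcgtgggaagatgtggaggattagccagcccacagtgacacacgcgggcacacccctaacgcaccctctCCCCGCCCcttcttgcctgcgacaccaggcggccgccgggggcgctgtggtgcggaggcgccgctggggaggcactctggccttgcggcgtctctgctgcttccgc

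The direction of these results depended on which knockdown-labelled libraries were used. Both of libraries 1 and 2 lay above all controls in 66 of the 80 genes, while library 3 lay below all controls in 56, within their range in 19 and above them in 5. In complex IV, libraries 1 and 2 were above all controls in 12 of 12 genes and library 3 below in 11. Without library 3, 67 of 80 genes were lower and 2 higher in rescue than in knockdown-labelled cells (background 20.4% lower and 18.6% higher), with a median of -1.05. With library 3 alone, 24 of 80 were higher and 1 lower in rescue (background 12.7% higher and 6.84% lower), with a median of 0.23. In that fit the lone library was assumed to vary like the other groups.

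Of the 4 genes NDUFB5, SDHD, COX6C and ATP5F1C, none changed sign with library 3 alone in rescue against knockdown-labelled, at -0.58, -0.38, -0.13 and -0.24, and without library 3 they stood at -1.42, -1.37, -1.45 and -1.10. In knockdown-labelled against control, library 3 alone gave 0.12, 0.02, -0.10 and 0.08 in the same order, so COX6C changed sign there, beside 0.96, 1.01, 1.22 and 0.94 without library 3. Of the 15 that fell, 12 stayed negative with library 3 alone, beside 24 of all 80. The 15, which include these 4, were picked by a fit that held library 3, so their sign there is no separate support. UQCRH turned round, at 0.75 with library 3 alone (adjusted p = 0.00119) beside -1.21 without it, as did COX8A, at 1.61 (adjusted p = 0.000848) beside -0.74, and ATP5MC3, at 0.79 (adjusted p = 0.000793) beside -0.55. The gap between knockdown-labelled libraries varied from gene to gene: the mean of libraries 1 and 2 over library 3 was 9.61 for NDUFA1, 6.05 for COX6A1, 5.42 for ATP5ME and 1.74 for NDUFB5, against 1.03 for ATP5F1B.

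**Figure D4:**
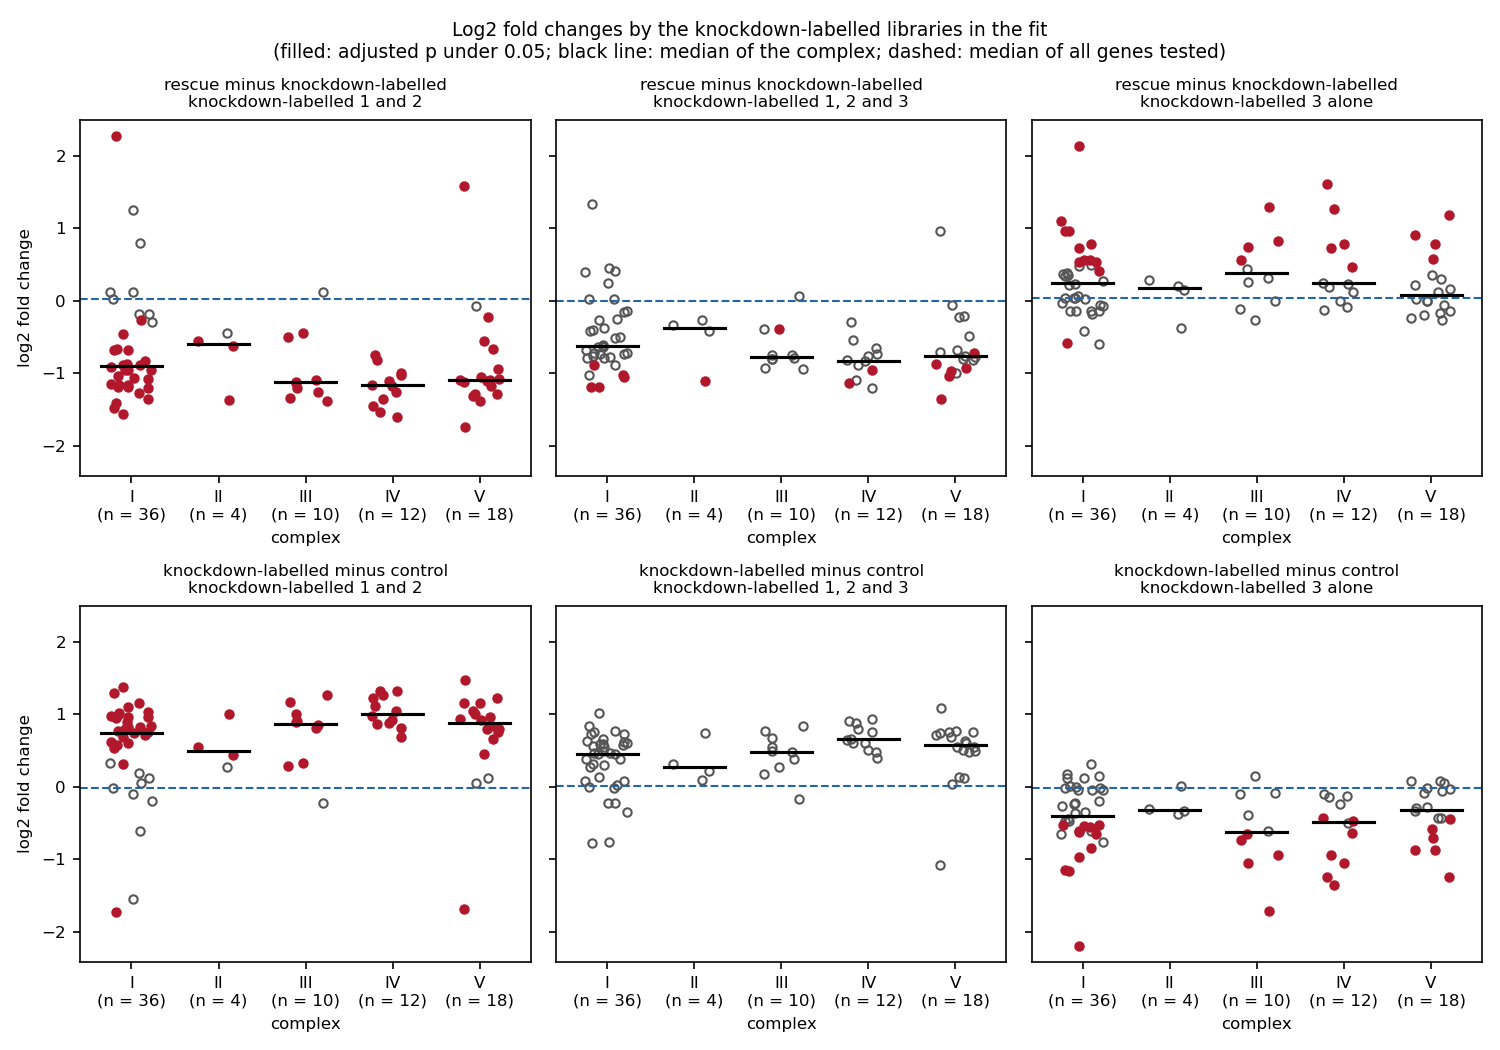
Log2 fold changes of the 80 genes by complex, with knockdown-labelled libraries 1 and 2 (left), all 3 (middle) or library 3 alone (right), for rescue minus knockdown-labelled (top) and knockdown-labelled minus control (bottom). The medians of the top row are -1.05, -0.73 and 0.23, and those of the bottom row are 0.83, 0.53 and -0.41.

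In knockdown-labelled against control libraries, which asks what shifts when UGT2B28 is targeted, 0 of 80 genes passed by edgeR. Over all genes edgeR called 0.00595% higher and 0.0% lower. At an unadjusted p under 0.05 there were 24 of 80, beside 19.1% of all genes. By DESeq2 5 of 80 passed, all higher, beside 3.69% of all genes higher and 2.74% lower. The log2 fold change was positive in 71 of 80, with a median of 0.53 beside 0.02 over all genes, and complex medians were 0.46 for I, 0.27 for II, 0.49 for III, 0.66 for IV and 0.58 for V. The groups stood apart, higher, in 4 genes (ATP5F1A, ATP5F1C, ATP5MG and UQCRC2) and, lower, in 2 (NDUFV1 and UQCRFS1), against 11.0% and 10.2% of all genes. ATP5MG, with 1330 counts in all, shares 7.7% of its exon length with the antisense gene AP001267.1, which had 17270. ATP5MK had 293, 302 and 88.9 CPM in knockdown-labelled and 106, 115 and 102 CPM in control libraries (1.09, SE 0.350, adjusted p = 0.141), the largest log2 fold change of the 80. ATP5F1C was one of the 4 higher genes without overlap, at 0.71 (adjusted p = 0.103), and NDUFB5, SDHD and COX6C stood at 0.73, 0.75 and 0.91. NDUFV1 was lower without overlap, at 218, 196 and 155 CPM in knockdown-labelled and 219, 226 and 218 CPM in control libraries (-0.22, adjusted p = 0.405). Without library 3, 65 genes were higher and 2 lower (background 18.1% and 14.8%). With library 3 alone, 30 were lower and 0 higher (background 9.07% and 2.34%), the largest shift being that of NDUFA1 (chosen after its values were seen), a membrane arm subunit, with 213, 186 and 20.8 CPM in knockdown-labelled and 98.98, 91.3 and 89.1 CPM in control libraries.

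In rescue against control libraries, which asks how rescue cells compare with control cells, no member passed. By edgeR 0 of 80 genes passed (background 0.00595% lower and 0.143% higher), none by DESeq2 (1.44% of all genes higher and 0.5% lower), and 0 at an unadjusted p under 0.05, beside 10.5% of all genes. The log2 fold change was negative in 69 of 80 with a median of -0.16, beside -0.0066 over all genes, and complex medians lay between -0.13 and -0.20. In 22 genes the rescue values lay wholly below the controls and in 1 wholly above, against 13.6% and 12.8% of all genes. NDUFB5 had -0.46 (95% confidence interval -0.93 to 0.02, adjusted p = 0.489) and NDUFA10 -0.22 (adjusted p = 0.480), the lowest p of the 80. NDUFA11, an overlapping gene with 13.3, 12.9 and 16.2 CPM in rescue and 10.01, 9.695 and 10.9 CPM in control libraries, was the 1 gene wholly above (0.47). Knockdown-labelled library 3 enters this comparison only through the shared filter, scaling, spread and p adjustment. Without it, 8 genes passed, all lower (background 2.86% lower and 4.52% higher). Without knockdown-labelled libraries 1 and 2, 1 passed, lower (background 1.89% lower and 3.38% higher).

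Median log2 fold changes went with coding length. In rescue against knockdown-labelled libraries, the median log2 fold change was -0.80 for the 37 genes with a coding length under 400 bases and -0.68 for the 21 with 400 to under 600 bases. It was -0.72 for the 9 with 600 to under 1000 bases and -0.23 for the 12 with 1000 or more. Over all protein-coding genes tested the medians in the same bins were -0.41, -0.33, -0.18 and 0.04. Across the 79 genes with a coding sequence, the Spearman rho of coding length and log2 fold change was 0.454, a description across genes that share the same libraries. In knockdown-labelled against control libraries it was -0.469, from the same knockdown-labelled libraries. A fit corrected for coding length, chosen after the pattern was seen, left 18 of 80 genes lower in rescue than in knockdown-labelled and 0 higher (background 5.87% lower and 3.54% higher), with a median of -0.39, and gave a median of 0.22 in knockdown-labelled against control.

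**Figure D5:**
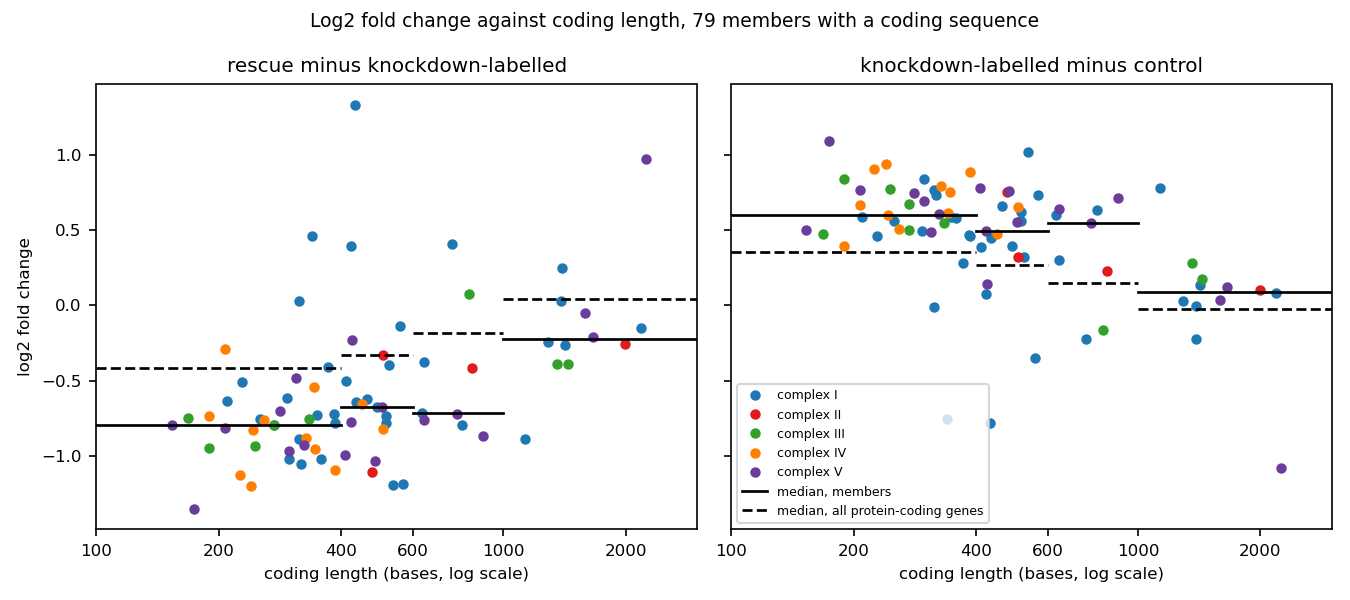
Log2 fold change of 79 genes against coding length (log axis), with medians in 4 length bins for these genes (solid) and for all protein-coding genes tested (dashed). The bin of the longest genes has the medians nearest 0 (-0.23 and 0.09), and that of the shortest the farthest (-0.80 and 0.60). Single genes of the longest bin range from -0.89 to 0.97 (left) and from -1.08 to 0.78 (right).

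Levels differed widely between genes of 1 complex, on the scale of CPM per kilobase of annotated transcript. In control libraries the highest of each complex were NDUFB4 (376), SDHB (72.8), UQCRH (441), COX7C (433) and ATP5F1B (299). The lowest were NDUFA9 (1.36), SDHA (3.47), UQCRHL (1.48), COX7B (19.6) and ATP5MF-PTCD1 (2.66). These scaled values depend on the transcript used and on which reads were counted. NDUFA9 was divided by 8363 bases and COX7B by 2471, for coding lengths of 1131 and 240. NDUFA9 also shares 606 and 1103 exon bases with AC005832.4 and AC005833.1 on its strand, which had 0 and 5 counts. Over the 80 genes the median was 72.8 in rescue, 114.8 in knockdown-labelled and 75.8 in control libraries. For the 11 genes that share 30% or more of their transcript with another gene on the same strand the control median was 16.9, beside 91.8 for the other 69. HTSeq can set aside reads that fall on exons of 2 genes as ambiguous, and such reads made up 2.36% to 3.14% of each library. None of the 15 genes that fell is among the 11, but SDHD shares 22.2% and NDUFC2 17.1% of the transcript in this way.

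The mitochondrially encoded partners moved the same way in rescue against knockdown-labelled libraries. Of their 13 mRNAs 11 fell, beside 5.39% of all genes lower, with a median log2 fold change of -1.35. The 13 mRNAs took 5.5%, 4.41% and 6.18% of counts in rescue, 11.5%, 12% and 8.59% in knockdown-labelled and 6.57%, 6.90% and 6.04% in control libraries. MT-ND1, a core membrane subunit of complex I, had 2202, 1511 and 2220.0 CPM in rescue, 6157, 6271 and 2844 CPM in knockdown-labelled and 2378, 2481 and 2206 CPM in control libraries (-1.36, adjusted p = 0.0199). MT-ATP6, of the proton channel of complex V, had -1.35 and the oxidase core subunit MT-CO1 -1.20. Without library 3 all 13 fell (median -1.63), beside 20.4% of all genes lower. With library 3 alone the median was -0.50, with 11 of 13 negative. In knockdown-labelled library 3 nuclear and mitochondrial subunits parted, with 11 of 13 mitochondrial mRNAs above the control mean and 15 of 80 nuclear ones. Over all genes tested 8729 of 16796 were above it. No nuclear or mitochondrial member of the lists below passed in either comparison with control.

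Other genes of the pathway that passed were all lower in rescue than in knockdown-labelled libraries, read against the background of 5.39%. Complex I assembly factors fell in 3 of 16 cases, namely NDUFAF4 (-0.92), TMEM126B (-0.94) and TIMMDC1 (-0.56), and complex II assembly in 1 of 4, SDHAF3 (-1.07). Complex III assembly had 0 of 6. Complex IV assembly had 5 of 22, led by COX18 (-0.93, adjusted p = 0.00909), an insertase, and COA3 (-0.79), with COX11, COA5 and COX20, and complex V assembly 1 of 3, ATPAF1 (-0.60). Of 13 genes for cytochrome c and ubiquinone synthesis 3 fell: COQ3 (-0.99), PDSS1 (-0.85) and COQ2 (-0.67). Of 14 citric acid cycle genes without SDH, 1 fell, fumarase FH (-0.37). Of 14 regulators 2 fell, TFB1M (-0.66) and GABPA (-0.64, adjusted p = 0.0127), which encodes the GABP subunit that binds DNA and lies head to head with ATP5PF, with which it shares exon bases. NRF1, whose letters were searched in the promoters, had 0.30 and did not pass. Of 10 subunit genes outside the symbol rule 4 had enough counts, and 0 passed: NDUFAB1 (-0.38), CYC1 (-0.28), ATP5IF1 (-0.77) and NDUFA4L2 (-0.83). Without library 3 the counts of genes that fell were larger, as for complex I assembly (9 of 16, median -0.51) and complex IV assembly (15 of 22, median -0.57). In that fit 20.4% of all genes were lower. With library 3 alone, complex I assembly had a median of 0.02 (8 of 16 negative) and complex IV assembly -0.12 (14 of 22 negative).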

How the data were processed

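RNA sequencing of 9 LAPC4 libraries was used as raw counts per gene, as deposited by the authors. The tools named are HTSeq, STAR, cutadapt and FastQC, with the hg38 build, per the submitters' processing notes. Their versions and the strandedness of counting are not stated. Rows that name no gene were left out of totals and tests (no feature 43.7% to 48.7%, ambiguous 2.36% to 3.14%, not unique 7.67% to 11.6% of each library). Genes were matched to GENCODE 29 (55725 of 60325 rows, all 80 members) and promoters to RefSeq.

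Main test: edgeR 4.0.16 quasi-likelihood F test in R 4.3.3 on all 9 libraries, TMM scaling, filterByExpr with a minimum count of 10, Benjamini-Hochberg adjusted p under 0.05 over the 16796 genes tested, 6 residual degrees of freedom. DESeq2 1.42.0 and limma 3.58.1 (voom) were alternatives. CPM are TMM-scaled counts per 1000000. On simulated data for rescue against knockdown-labelled libraries, 16431 genes were run. Of 100 genes changed by 2-fold 51 were recovered, and of 100 changed by 4-fold 87, with 10 false calls of 148. For knockdown-labelled against control (16492 genes) these were 57 and 94, with 9 of 160. For rescue against control (16446 genes) they were 51 and 93, with 13 of 157. Whether these rates hold for the measured libraries, where a knockdown-labelled library stood apart from the rest of its group, was not tested. They are therefore not error rates of the calls reported here.

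Named genes were the 4 given with the rule (NDUFB5, SDHD, COX6C, ATP5F1C), all members that passed, and, per complex and comparison, the 2 with the smallest p, the one nearest 0 and up to 3 of opposite sign, plus the extremes per kilobase, the c subunit genes and the pathway genes that passed. Others were chosen after their values were seen. The members and lists were chosen with earlier results of these data known. Leaving out knockdown-labelled libraries 1 and 2 together, and the coding length correction, were chosen after seeing the data. Some members are not reported here individually.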

Additional observations from a re-analysis of the deposited data

How the results depend on the processing

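For rescue against knockdown-labelled libraries the 15 members called became 55 without a filter on low counts (2 higher, 53 lower; all genes 3.45% higher, 4.07% lower), 27 by DESeq2, all lower (all genes 7.45% higher, 8.64% lower), 9 by limma-voom, all lower (4.97% and 5.19%), 0 with only the compared groups in the fit, 0 at an adjusted p under 0.01 and 25 without knockdown-labelled libraries 1 and 2 (24 higher, 1 lower); leaving out 1 library gave 0 to 69. For knockdown-labelled against control the 0 called became 38 without a filter (37 higher, 1 lower; all genes 2.09% higher, 0.89% lower), 5 by DESeq2 (3.69% higher, 2.74% lower) and 30, all lower, without libraries 1 and 2; leaving out 1 library gave 0 to 67. For rescue against control the 0 called became 1 with only the compared groups (all genes 3.92% higher, 1.95% lower). Leaving out 1 library gave 0 to 8 in rescue against control. With the replicate number as a block 1 member passed in rescue against knockdown-labelled (1.33% of all genes higher, 1.3% lower). In that comparison 0.0244% of all genes were higher and 0.0183% lower with only the compared groups. At an adjusted p under 0.01, 93 of all 16796 genes were higher and 69 lower. With 1 library left out, 0.249% to 20.4% of all genes were lower. Same-numbered rescue and knockdown-labelled libraries had deviations from their group means correlated at -0.14, -0.16 and -0.35. For rescue and control these were 0.08, -0.02 and 0.06, and for knockdown-labelled and control 0.004, -0.03 and -0.04. Deviations from a mean of 3 libraries depend on each other, so these values cannot decide whether the numbers pair the libraries. In rescue against knockdown-labelled, RLE size factors gave 14 calls (all genes 4.52% higher, 5.08% lower) and a filter of 1 CPM 14 (4.55% and 4.94%). Library size alone gave 11 (1 higher, 10 lower), beside 7.9% of all genes higher and 1.37% lower. The coding length correction gave 18 (all genes 3.54% higher, 5.87% lower).

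Scaling by library size alone moved the median of all genes to 0.24 in rescue against knockdown-labelled and -0.21 in knockdown-labelled against control. Relative to it the members' median was -0.65 and 0.43. Without knockdown-labelled libraries 1 and 2, the sign of the log2 fold change turned in 53 of 80 members in rescue against knockdown-labelled and in 66 of 80 in knockdown-labelled against control. Among the genes named by rule that passed in either fit, those were, in rescue against knockdown-labelled, ATP5MC3 (0.79), ATP5MK (0.0296), NDUFB9 (0.0463), ATP5MJ (0.0021), UQCRH (0.75) and COX8A (1.61), and in knockdown-labelled against control ATP5MC1 (-0.58), ATP5MC2 (-0.44), ATP5MC3 (-0.88), UQCRQ (-0.73), UQCRH (-1.05) and COX7C (-0.47). The cause was not tested. NDUFA7 had 81 counts over the 9 libraries, so its values are imprecise.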

Other observations

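The 3 members that are not plain subunit genes had their own values. UQCRB-AS1, an antisense RNA, had 34.1, 41.2 and 48.6 CPM in rescue, 98.9, 97.4 and 16.97 CPM in knockdown-labelled and 57.2, 46.1 and 60.1 CPM in control libraries. UQCRHL, the intronless copy of UQCRH, had 3.097, 2.799 and 2.98 CPM in rescue, 6.999, 6.003 and 2.503 CPM in knockdown-labelled and 4.08, 3.67 and 1.95 CPM in control libraries. The readthrough ATP5MF-PTCD1 had 6.79, 4.72 and 6.86 CPM in rescue, 1.48, 2.47 and 5.33 CPM in knockdown-labelled and 7.92, 6.74 and 5.23 CPM in control libraries. None of the 3 passed in a comparison.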
